A study of Rattus norvegicus with 9 samples.

Results

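The genes described here are 9 targets of the transcription factor p53 that halt the cell cycle or feed back on p53 itself: Cdkn1a, Ccng1, Btg2, Plk3, Gadd45a, Mdm2, Phlda3, Sesn1 and Sesn2. Their array probes were found by matching the transcript accession that the scanner files pair with each probe to the rat gene symbol, and 8 of the 9 genes had a probe. These were 12 of the 41012 different probes of the array, of which 16968 carried a gene name and covered 13438 named genes. Sesn1 is only named below.

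The rats were male Wistar rats, and liver RNA from 3 rats of each of 3 groups was hybridised to 9 one-colour arrays. The control rats received neither irradiation nor capsule. The TBI rats received total-body irradiation of 6.5 Gy from a 60Co source at 2 Gy per min, and liver was taken 24 h later. The HSC + TBI rats received the same irradiation after Hong Shan Capsule (HSC), a mixture of crude drugs from medicinal herbs, given by stomach tube on each of the 3 days before, at 30 mg/kg per day by the sample labels and 10 g/kg per day by the series' design text. No age is given for the rats, rats given HSC without irradiation were not analysed here, and a liver sample mixes hepatocytes with blood, immune and vessel cells.

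When DNA breaks, the kinases ATM and ATR and their partners release p53 from the ubiquitin ligase MDM2, and p53 then switches on genes that stop the cell cycle, repair DNA or kill the cell. CDKN1A, also called p21, is the main brake: it blocks the cyclin-dependent kinases, so that the RB family and the DREAM complex shut down the genes of replication and mitosis. MDM2 is itself a p53 target, which closes a feedback loop, and in liver, a tissue of mostly resting cells, irradiation is known to raise these targets without the massive cell death seen in lymphoid organs.

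A p53 response element is a pair of decamers that each follow one consensus, 3 purines, a C, 2 bases that are each A or T, a G and 3 pyrimidines, which reads the same on both strands. RefSeq windows of 300 bases (assembly GRCr8, 250 before to 50 after each gene's start) were searched for it in all 33469 promoters. An exact decamer was present in 7.98% of all windows and in those of 4 of the 9 genes, namely Ccng1, Cdkn1a, Gadd45a and Sesn1. A pair with at most 1 mismatch and a gap of up to 13 bases was present in 0.565% of all windows and in those of Ccng1, Cdkn1a and Gadd45a, and a pair with at most 1 mismatch and no gap in 17 windows in all, among them those of Ccng1 and Cdkn1a. With up to 3 mismatches the pair was present in 14.2% of windows and in 5 of the 9. These limits were chosen after the matches were seen, so the shares are descriptions. The 250 bases before the start of the 3 genes are printed because they set the strongest riser, Cdkn1a, and Ccng1 beside Gadd45a, which did not pass the test. Capitals mark the pair of decamers.
Cdkn1a, chr20:7150682-7150931, plus strand: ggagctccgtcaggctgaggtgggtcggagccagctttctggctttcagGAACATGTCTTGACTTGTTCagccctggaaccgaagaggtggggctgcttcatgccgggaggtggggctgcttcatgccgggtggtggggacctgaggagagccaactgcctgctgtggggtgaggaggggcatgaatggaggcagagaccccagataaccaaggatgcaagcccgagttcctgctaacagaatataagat
Ccng1, chr10:25684877-25685126, minus strand: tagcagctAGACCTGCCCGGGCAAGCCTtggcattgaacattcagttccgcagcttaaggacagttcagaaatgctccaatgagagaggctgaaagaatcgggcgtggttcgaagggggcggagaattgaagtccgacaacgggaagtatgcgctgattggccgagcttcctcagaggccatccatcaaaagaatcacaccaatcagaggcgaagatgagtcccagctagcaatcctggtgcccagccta
Gadd45a, chr4:97486800-97487049, minus strand: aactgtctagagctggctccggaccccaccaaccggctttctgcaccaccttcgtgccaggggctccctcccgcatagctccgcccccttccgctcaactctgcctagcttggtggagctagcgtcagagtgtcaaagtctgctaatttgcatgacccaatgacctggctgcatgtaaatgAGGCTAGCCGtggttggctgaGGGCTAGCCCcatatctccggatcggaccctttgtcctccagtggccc
The pair lay 201 to 182 bases before the start in Cdkn1a and 242 to 223 bases before it in Ccng1, in both without a gap. In Gadd45a the decamers lay 69 to 39 bases before the start and were 11 bases apart. A match is a stretch of letters and not a measured binding site, and the windows of Mdm2, Btg2, Phlda3, Sesn2 and Plk3 hold no pair with at most 1 mismatch in these 300 bases.

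Levels are given below as log2 signal after quantile normalization over the 9 arrays, where a step of 1 is a doubling, and levels of different probes cannot be set against each other. A probe was tested if some group had it well above background in all 3 of its rats, which held for 25369 probes and for all 12 probes of the member genes. A call needs an adjusted p under 0.05 by limma over all probes tested and a fold change of at least 1.5. The controls lay on 1 slide, the TBI rats on another and the HSC + TBI rats on 2 further slides. No slide held rats of different groups, so slide and group cannot be told apart in any of the 3 comparisons. Between 56.65% and 59.33% of probes were well above background in controls, 63.57% to 69.54% in TBI and 58.66% to 60.46% in HSC + TBI. The tissue label held: all 12 hepatocyte markers were well above background on every array. Their summed linear signal lay at 1455604 to 1527593 in controls, 1409720 to 1573790 in TBI and 1475889 to 1543818 in HSC + TBI. Quantile normalization gives all arrays the same distribution, which limits how far sums of bright probes can differ. These sums are thus no measure of hepatocyte content.

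In TBI rats at 24 h, 7 of the 8 measured genes were called higher than in controls, in every case with all 3 TBI rats above all 3 controls. Cdkn1a rose 41.3-fold, Btg2 8.71-fold, Phlda3 5.85-fold and Ccng1 5.58-fold, while Plk3, Sesn2 and Mdm2 rose by 2.14-fold, 1.98-fold and 1.94-fold. Gadd45a was 1.11-fold higher in TBI and was not called. Over all probes tested, 3.53% were called higher and 3.73% lower in TBI, and 13.2% had every TBI rat above every control. The median log2 fold change of the 8 genes was 1.79, beside -0.01 over all probes tested.

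In HSC + TBI rats 6 of the 8 genes were called higher than in controls, and in a seventh, Plk3, the groups did not overlap. The background for that comparison was 1.19% of probes called higher, 2.05% called lower and 18.0% with every HSC + TBI rat above every control. The median log2 fold change of the 8 genes was 1.84, beside 0.05 over all probes tested. Both comparisons use the same 3 control rats, so they are not independent of each other.

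Between HSC + TBI and TBI, 0 of the 8 genes were called by limma, 0 had an unadjusted p under 0.05 (16.3% of all probes tested), and 0 were called by the methods' t-test before adjustment (3.67% of all probes tested), so that 0 of 8 is near the background. Against control the same test called 7 of the 8 genes in TBI and 6 in HSC + TBI before adjustment, beside 8.37% and 6.65% of all probes tested. In each of the 8 the HSC + TBI and TBI rats overlapped. How many of all probes tested did so was not counted, so this overlap is a description only. Over all probes tested, 0.233% were called higher and 0.564% lower in HSC + TBI than in TBI, which are 59 and 143 probes (38 and 239 under scaling to the 75th percentile).

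**Figure D1:**
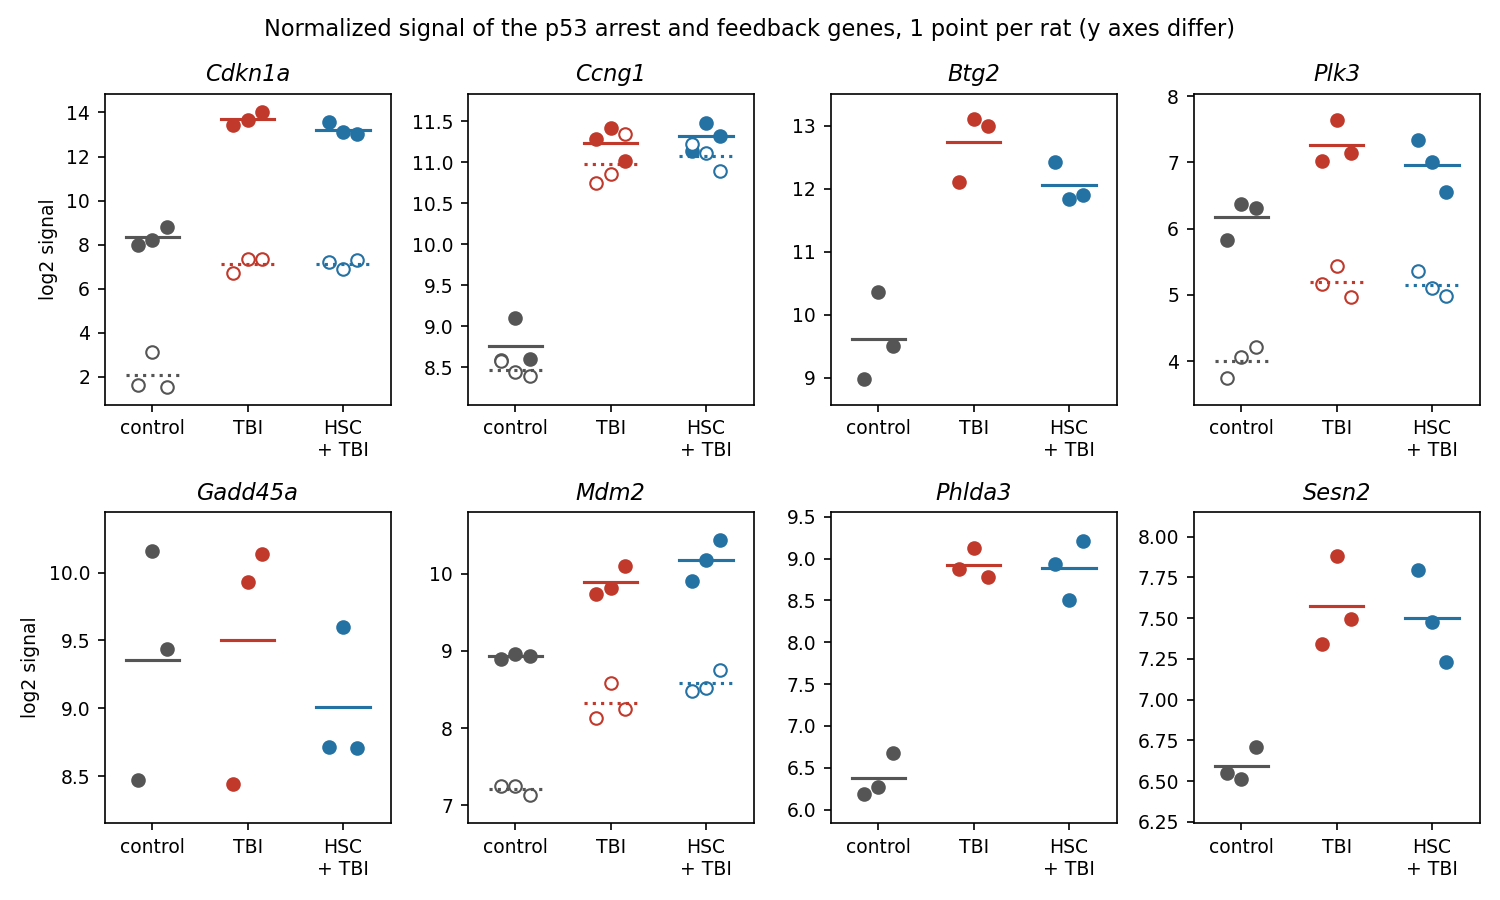
Normalized log2 signal of the 8 measured genes, 1 point per rat in control (grey), TBI (red) and HSC + TBI (blue), with filled points for a gene's brightest probe, open points for its second probe and lines for the group means. In 7 of the 8 panels every irradiated rat lies above every control. In the Gadd45a panel the 3 groups overlap.

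Among the arrest genes, Cdkn1a on chromosome 20 moved most. Its log2 signal was 7.98, 8.22 and 8.82 in the 3 controls, 13.44, 13.64 and 14.04 in the TBI rats and 13.56, 13.10 and 13.01 in the HSC + TBI rats. The lowest irradiated rat thus lay over 4 log2 units above the highest control, and the irradiated groups overlapped. The increase in TBI was 5.37 on the log2 scale (standard error 0.25, adjusted p = 3.42e-05 by limma), and in HSC + TBI it was 4.88 (standard error 0.25, adjusted p = 8.72e-05). HSC + TBI was 0.71 times the TBI level, with a 95% interval of 0.48 to 1.07 times (adjusted p = 0.389 by limma). This probe is printed on the array as 10 spots, and their standard deviation within an array was 0.062 to 0.211 log2 units, less than the 0.29 to 0.43 between rats of a group.

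A second Cdkn1a probe was not well above background in any control and passed the filter only through the irradiated rats, so its difference from controls had to be large and serves as a bound. Its signal was 6.73, 7.33 and 7.33 in TBI and 7.21, 6.88 and 7.28 in HSC + TBI. Set against the lowest signals above background on the control arrays, this was at least 9.70-fold higher in TBI and at least 9.67-fold higher in HSC + TBI. HSC + TBI was 0.998 times TBI by this probe, with a 95% interval of 0.54 to 1.86 times.

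Ccng1 on chromosome 10 encodes cyclin G1, which recruits a phosphatase to MDM2. Its log2 signal was 8.59, 9.09 and 8.60 in controls, 11.28, 11.42 and 11.02 in TBI and 11.14, 11.48 and 11.32 in HSC + TBI. The 6 irradiated rats lay close together and well clear of the controls. The log2 fold change was 2.48 in TBI (standard error 0.18, adjusted p = 0.000324 by limma) and 2.55 in HSC + TBI (adjusted p = 0.000296). Its second probe gave 2.51 and 2.60, nearly the same values. HSC + TBI was 1.05 times TBI, with a 95% interval of 0.79 to 1.40 times.

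Btg2 on chromosome 13 encodes an antiproliferative protein that works with the mRNA deadenylases. In single rats its log2 signal was 8.98, 10.36 and 9.49 in controls, 12.11, 13.10 and 12.99 in TBI and 12.42, 11.84 and 11.90 in HSC + TBI. The irradiated groups were clear of the controls, but rats of a group differed widely: the control standard deviation of 0.70 was larger than that of 96.1% of the probes tested. The log2 fold change was 3.12 in TBI (standard error 0.38, adjusted p = 0.00326 by limma) and 2.44 in HSC + TBI (adjusted p = 0.0128). The second of these calls was lost without control 3 (adjusted p = 0.0610) or without HSC + TBI 1 (adjusted p = 0.0618). Of all 8 genes Btg2 had the lowest HSC + TBI level against TBI, 0.62 times, with a 95% interval of 0.34 to 1.14 times (adjusted p = 0.425).

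Plk3 on chromosome 5 encodes a polo-like kinase that answers to stress and DNA damage, unlike its mitotic relative Plk1. The log2 signal of Plk3 was 5.83, 6.37 and 6.31 in controls, 7.03, 7.64 and 7.14 in TBI and 7.34, 7.0 and 6.56 in HSC + TBI. Every irradiated rat was above every control, although HSC + TBI 3 was above control 2 by under 0.2 log2 units. The log2 fold change was 1.10 in TBI (standard error 0.25, adjusted p = 0.0338 by limma) and 0.80 in HSC + TBI, which was not called (adjusted p = 0.129). The TBI call was lost without control 1, control 2, control 3, TBI 2 or HSC + TBI 2, with adjusted p of 0.0952, 0.0623, 0.0812, 0.0909 and 0.0512. A second, dimmer probe was above background on 2 of the 3 control arrays and passed the filter through the irradiated rats alone, which favours a difference, so its log2 fold changes of 1.19 and 1.15 are values without a test.

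Gadd45a on chromosome 4 encodes a small stress sensor that binds CDKN1A, PCNA and the cyclin B kinase and is a textbook p53 target. The Gadd45a log2 signal was 8.48, 10.16 and 9.44 in controls, 8.44, 9.93 and 10.14 in TBI and 8.71, 9.60 and 8.71 in HSC + TBI. The lowest rat of every group lay near 8.5 and the groups overlapped throughout. The log2 difference was 0.14 in TBI (95% interval -1.09 to 1.38, adjusted p = 0.891 by limma) and -0.35 in HSC + TBI (95% interval -1.59 to 0.88, adjusted p = 0.773). The first interval leaves room for a change of over 2-fold in either direction and the second for a decrease of over 2-fold, and the rats of a group varied more than for most genes. The standard deviations of 0.85, 0.92 and 0.51 in the 3 groups exceeded those of 97.6%, 96.6% and 92.9% of the probes tested. Without TBI 1 the TBI difference was 0.67, and without control 1 it was -0.30.

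Of the feedback genes, Mdm2 on chromosome 7 encodes the ligase that marks p53 for destruction. Its log2 signal was 8.89, 8.96 and 8.93 in controls, 9.73, 9.82 and 10.10 in TBI and 9.91, 10.17 and 10.43 in HSC + TBI. The controls agreed closely, with a standard deviation of 0.03 that was larger than only 2.96% of those of the probes tested. The log2 fold change was 0.96 in TBI (standard error 0.16, adjusted p = 0.0105 by limma) and 1.24 in HSC + TBI (adjusted p = 0.00537). A second probe gave 1.11 and 1.37, so both probes were higher in HSC + TBI than in TBI. That difference was 1.22-fold, with a 95% interval of 0.95 to 1.57, by the brighter probe (adjusted p = 0.419) and 1.20-fold, 0.95 to 1.51, by the other (adjusted p = 0.425).

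Phlda3 on chromosome 13 encodes a small lipid-binding protein that keeps AKT from the membrane and so restrains a survival signal. Its log2 signal was 6.19, 6.27 and 6.68 in controls, 8.88, 9.13 and 8.78 in TBI and 8.93, 8.51 and 9.21 in HSC + TBI. The irradiated rats formed a single range that lay clear of the controls. The log2 fold change was 2.55 in TBI (standard error 0.21, adjusted p = 0.000485 by limma) and 2.5 in HSC + TBI (adjusted p = 0.000712). HSC + TBI was 0.97 times TBI, with a 95% interval of 0.70 to 1.35 times.

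Sesn2 on chromosome 5 encodes a sestrin, a leucine sensor that dampens mTORC1 and is raised by p53 and by the integrated stress response. Rat by rat, the log2 signal was 6.55, 6.51 and 6.71 in controls, 7.34, 7.88 and 7.49 in TBI and 7.79, 7.48 and 7.23 in HSC + TBI. All 6 irradiated rats were above the controls, and the irradiated groups overlapped. The log2 fold change was 0.98 in TBI (standard error 0.19, adjusted p = 0.0171 by limma) and 0.91 in HSC + TBI (adjusted p = 0.0370). The TBI call was lost without control 1 or control 2 (adjusted p = 0.0528 and 0.0572). In HSC + TBI the call was lost without any 1 of the 3 controls (adjusted p = 0.0789, 0.124 and 0.0997), HSC + TBI 1 (0.132) or HSC + TBI 2 (0.112). HSC + TBI was 0.95 times TBI, with a 95% interval of 0.71 to 1.28 times.

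**Figure D2:**
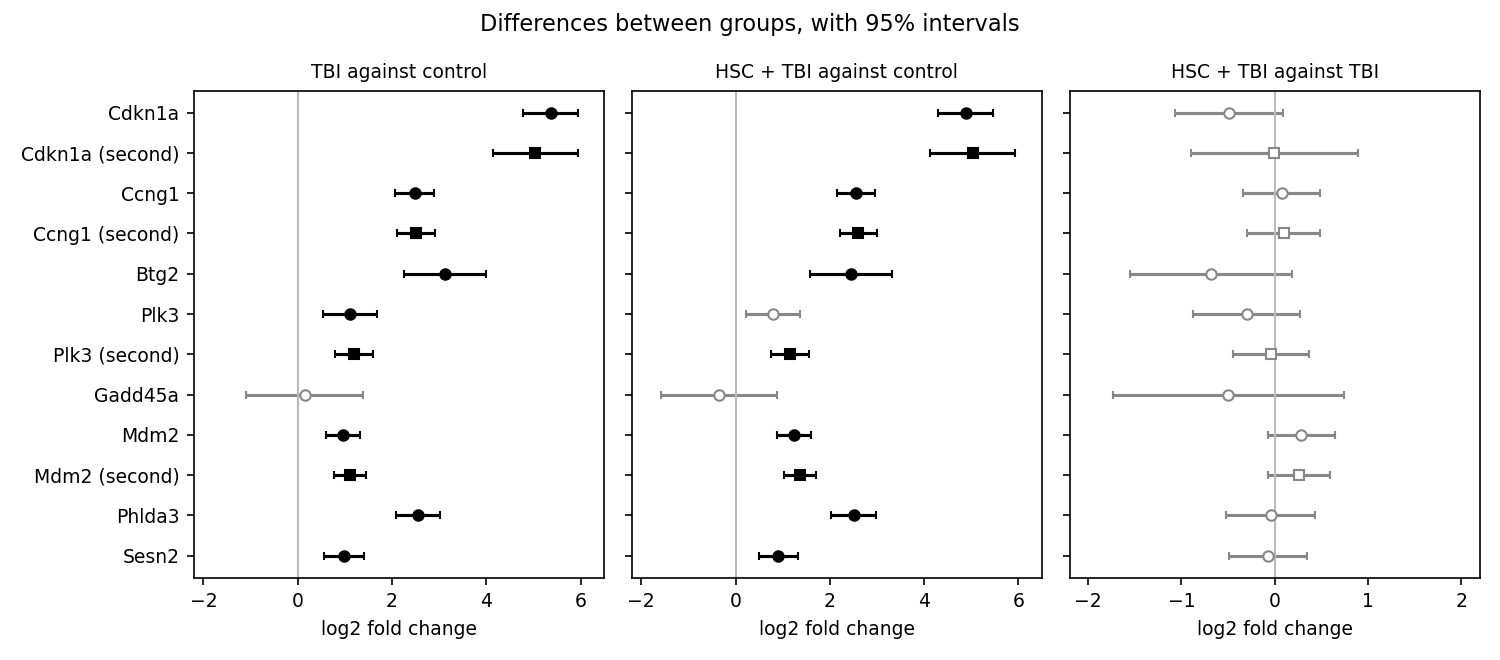
Log2 fold change of each probe of the 8 genes with its 95% interval from the limma fit, for TBI and HSC + TBI against control and for HSC + TBI against TBI (narrower axis), with filled symbols for calls, circles for the brightest probe and squares for the second. Against control the values run from -0.35 to 5.37, and between the irradiated groups every interval includes 0. The second probes of Cdkn1a and Plk3 passed the filter through the irradiated rats alone. Their filled symbols against control are thus no test, and that of Cdkn1a stands for a bound.

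The 95% intervals also show how large a difference between the HSC + TBI and TBI groups remains within the spread between rats. Differences between slides are not part of these intervals, so they do not bound an effect of HSC. They stayed short of a 1.5-fold reduction for Mdm2, Ccng1, Phlda3 and Sesn2, whose lower ends were 0.95, 0.79, 0.70 and 0.71 times the TBI level, but not for Cdkn1a, Btg2, Plk3 or Gadd45a, whose lower ends were 0.48, 0.34, 0.55 and 0.30 times. For the brightest probes the log2 difference was above 0 in 2 genes, Mdm2 and Ccng1, and below 0 in the other 6, with a median of -0.19 beside 0.06 over all probes tested.

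Across the 9 rats, 7 of the genes followed one pattern, with correlations between 0.88 for Mdm2 and 0.97 for Btg2 and Cdkn1a between a gene and the mean of the others, whereas Gadd45a had 0.04. These are descriptions over rats of 3 groups, in which the step between controls and irradiated rats carries most of the variation. Among 8525 other named genes above background on all 9 arrays, the 5 most like the members' mean, each by its most alike probe, were Gdf15 (r = 0.983), Mgmt (0.982), Rpl19 (0.982), Mmp19 (0.980) and Bax (0.978). These 5 were picked for following the members over these 9 rats. A difference from controls was thus fixed by the choice, and the values are given without a test. Gdf15 encodes a secreted stress hormone, and its log2 signal rose by 4.26 in TBI and 4.05 in HSC + TBI. Mgmt encodes the enzyme that removes alkyl groups from guanine, and it rose by 2.25 and 2.22. Bax, a pore former of the mitochondrial death pathway, rose by 1.19 and 1.21. Rpl19, a ribosomal protein gene, and Mmp19, a matrix metalloproteinase, differed by less, 0.50 and 0.76 in TBI, and Rpl19 did not reach the minimum fold change.

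**Figure D3:**
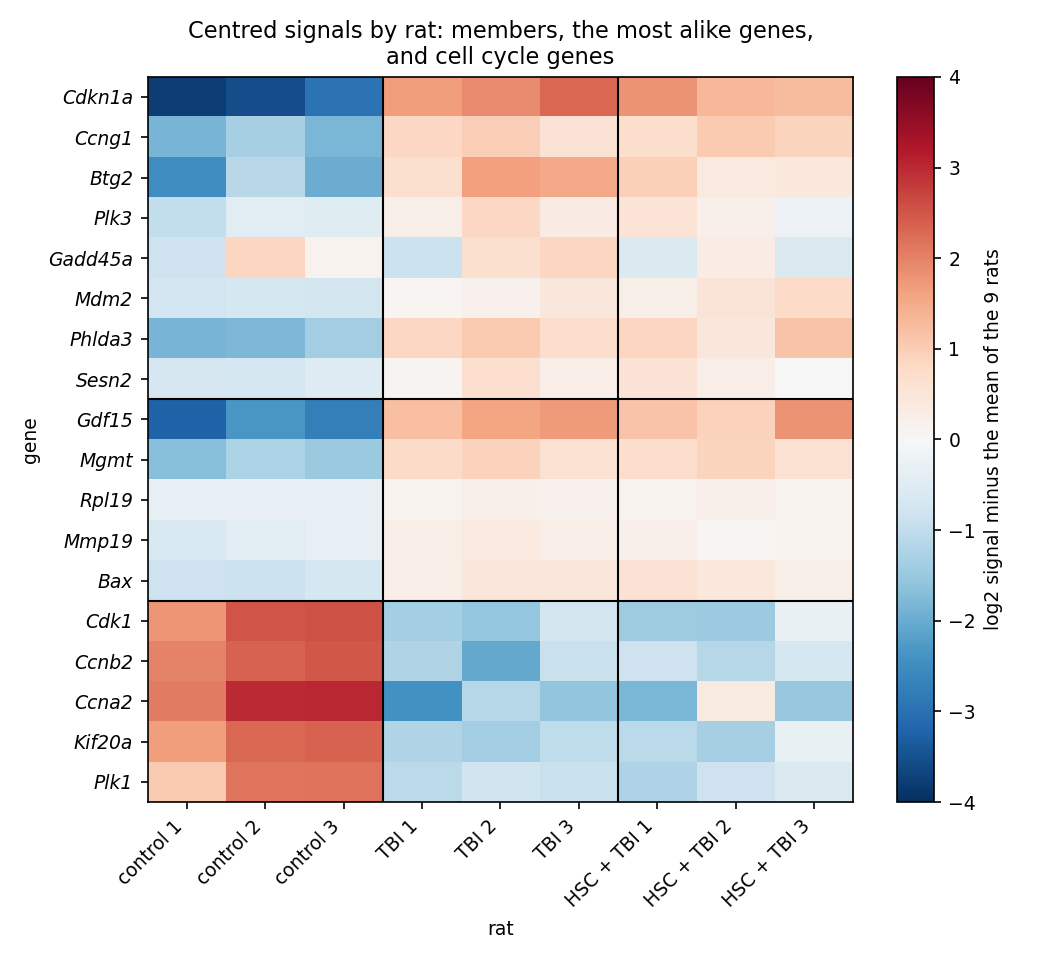
Log2 signal of each gene minus its mean over the 9 rats, with rats in columns by group and genes in rows: the 8 members, the 5 genes most like their mean, and 5 cell cycle genes. Red is above and blue below the gene's mean. Controls are lower in 7 members and in the 5 alike genes, higher in the cell cycle genes, and mixed in Gadd45a. The alike genes were picked for this pattern and the cell cycle genes for being called, so these patterns follow from the choice.

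Of 14 listed genes for p53 and its regulators, 10 had a probe, and in TBI 1 was called higher and 1 lower, beside 3.53% and 3.73% of all probes tested. Mdm4, the relative of MDM2 that masks p53, rose by 0.76 on the log2 scale in TBI (from 6.36 ± 0.13 to 7.12 ± 0.03, SD, n = 3, adjusted p = 0.00838 by limma) and by 0.69 in HSC + TBI (adjusted p = 0.0194, lost on leaving out any 1 of 4 rats, up to 0.0936). Chek2, a checkpoint kinase, fell by 1.26 in TBI (adjusted p = 0.0204). Of 6 other feedback genes 4 had a probe, 0 were called in TBI by limma with 2 at an unadjusted p under 0.05 (25.4% of all probes tested), and their median log2 fold change was 0.41.

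Other arms of the p53 response were called in part. Of 14 cell death targets 12 had a probe, and 5 rose in TBI and 6 in HSC + TBI, with none called lower. Among all probes tested 3.53% and 1.19% were called higher. The largest rises in TBI were those of Aen, an apoptosis-enhancing nuclease (1.60, adjusted p = 0.000274 by limma), Tp53inp1 (1.33, 0.00470), Bax (1.19, 0.00189) and the death receptor Fas (1.11, 0.0144, and 0.0548 without control 3). Zmat3 was the fifth, and Ei24 was added in HSC + TBI. Of 8 targets of DNA repair and nucleotide supply 6 had a probe: Xpc, a damage sensor, fell by 0.81 in TBI and fell by 0.88 in HSC + TBI (adjusted p = 0.0294 and 0.0367, each lost on leaving out any 1 of 6 rats), and Gtse1, past the filter through the irradiated rats alone, rose by 1.51 in HSC + TBI (adjusted p = 0.0373, also lost on leaving out any 1 of 6 rats). Of 15 targets of metabolism and secretion 10 passed the filter, and Gdf15 and Prkab1 rose in TBI, the latter by 0.59 (adjusted p = 0.0427, lost on leaving out any 1 of 8 rats). The medians of these 3 lists in TBI were 0.39, -0.25 and 0.00.

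Close relatives of the members moved in both directions. Of 18 listed relatives 17 passed the filter, 2 rose and 3 fell in TBI, 3 rose and 3 fell in HSC + TBI, and the medians were -0.03 and -0.07. The shares of all probes tested called higher and lower were 3.53% and 3.73% in TBI and 1.19% and 2.05% in HSC + TBI. Gadd45b rose from 9.77 ± 0.18 to 11.31 ± 0.25 in TBI (log2 signal, SD, n = 3, adjusted p = 0.00271 by limma), in every rat, in contrast to the values of Gadd45a above, though the difference between the 2 genes was not tested. In HSC + TBI Gadd45b was at 10.58 ± 0.24. Between HSC + TBI and TBI 0 of the 17 relatives were called by limma, beside 0.233% of all probes tested called higher and 0.564% lower. An unadjusted p under 0.05 was reached by 2 of them, beside 16.3% of all probes tested. Plk1, the mitotic kinase, fell, with log2 fold changes of -2.70 in TBI and -2.67 in HSC + TBI (adjusted p = 0.00221 and 0.00301), as did the CDK4 and CDK6 inhibitor Cdkn2d, with -0.89 and -0.95 (adjusted p = 0.00718 and 0.00783). Cdkn2c fell by 1.58 in TBI (adjusted p = 0.0136, and 0.0530 without control 3), to 4.27 ± 0.54, and was at 5.16 ± 0.26 in HSC + TBI. Ccng2 fell by 1.04 in HSC + TBI (adjusted p = 0.0213, lost on leaving out any 1 of 5 rats), and Phlda2 rose by 0.85 there (adjusted p = 0.0341, lost on leaving out any 1 of 6 rats).

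Several genes of a cell cycle list, mostly genes of replication and mitosis, were lower. The list also holds Cdk4, Cdk6, Rb1 and the cyclin D genes, so not all of it lies below CDKN1A. A part of Cdkn1a in these differences was not tested. Of 37 listed genes 25 passed the filter, 11 were called lower and 1 higher in each of the irradiated groups, and the median log2 fold changes were -0.92 in TBI and -0.86 in HSC + TBI. Over all probes tested, 3.73% were called lower and 3.53% higher in TBI, and 2.05% and 1.19% in HSC + TBI. Cdk1, the kinase that drives mitosis, went from 8.85, 9.59 and 9.61 in controls to 5.70, 5.51 and 6.33 in TBI and 5.67, 5.62 and 6.78 in HSC + TBI. Kif20a, a kinesin of cell division, went from 7.31, 7.92 and 8.0 to 4.44, 4.25 and 4.61 in TBI and 4.57, 4.30 and 5.34 in HSC + TBI. In both genes no irradiated rat came near a control, the log2 fold change of Cdk1 being -3.50 in TBI and -3.33 in HSC + TBI (adjusted p = 0.00177 and 0.00270 by limma) and that of Kif20a -3.31 and -3.01 (adjusted p = 0.000673 and 0.00135). Of the 11 called lower, 3 in TBI (Ccna2, Ccnb2 and Mcm6) and 5 in HSC + TBI (also Ccnb1 and Cdc25b) were not above background in every rat of the lower group, and passing the filter through a group where they are high favours such a difference. Mcm6, Ccnb1 and Cdc25b were named after their values were seen. Ccna2 and Ccnb2 give bounds. Ccna2, cyclin A2, was well above background in no TBI rat and was at least 14.7-fold higher in controls than in TBI, and Ccnb2, cyclin B2, was above background in no HSC + TBI rat and at least 6.72-fold higher in controls. Between HSC + TBI and TBI 0 of the 25 were called by limma, with 1 at an unadjusted p under 0.05. Over all probes tested, 0.233% were called higher, 0.564% were called lower and 16.3% had an unadjusted p under 0.05, so 0 calls are near the background. The gene called higher was Tyms, thymidylate synthase, which was named after its values were seen and rose by 0.94 in TBI (adjusted p = 0.00399).

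**Figure D4:**
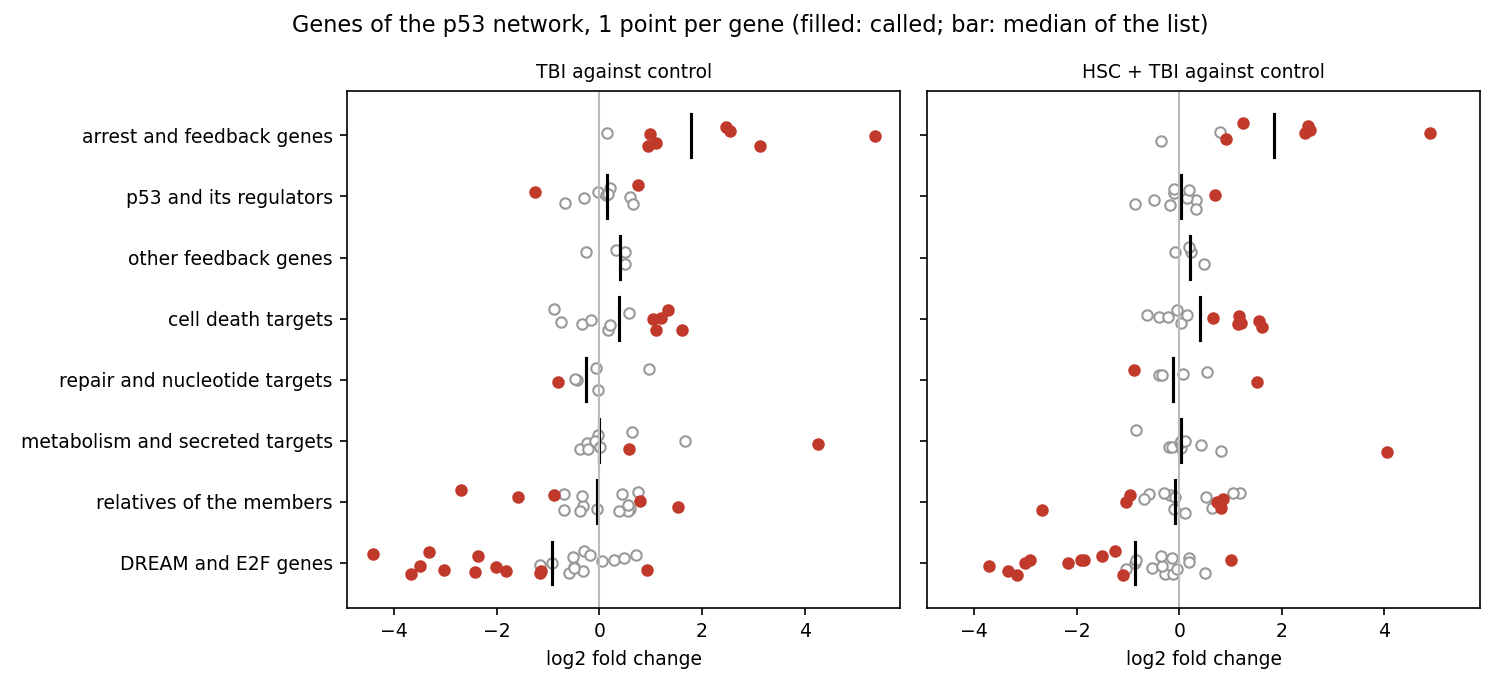
Log2 fold change against control of every gene past the filter in the 9-gene group and 7 other lists of the p53 network, for TBI (left) and HSC + TBI (right), with red filled points for calls, open points for the rest and a black bar for each list's median. The arrest and feedback genes have medians of 1.79 and 1.84, and the cell cycle list, labelled DREAM and E2F genes, of -0.92 and -0.86.

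Markers of other cell types moved between the groups too, and fewer cells of a type and less RNA per cell cannot be told apart in a tissue sample. Of the 14 leukocyte markers with a probe 11 passed the filter, and their summed linear signal was 2732 to 3690 in controls, 1869 to 3106 in TBI and 1222 to 1432 in HSC + TBI. Called lower were Cd79b, Cd2 and Coro1a in TBI and Cd79b, Cd52 and Coro1a in HSC + TBI, and Itgb2 was called higher in TBI. Among all probes tested 3.73% and 2.05% were called lower, and 3.53% were called higher in TBI. Cd79b and Cd2 passed the filter through the controls alone, where they are high, which favours a difference, and Coro1a and Cd52 were above background on all 9 arrays. Between HSC + TBI and TBI, Cd2 was called higher and Itgb2 lower, calls that were lost without any 1 of 5 and of 8 of the 9 rats. Cd2 was well above background in no TBI rat, so its difference is a bound, at least 2.06-fold. Over all probes tested, 0.233% were called higher and 0.564% lower in that comparison. The 11 Kupffer cell and macrophage markers summed to 93419 to 143990 in controls, 97554 to 182311 in TBI and 67917 to 73986 in HSC + TBI. By limma 0 of them were called, while an unadjusted p under 0.05 was reached by 1 when TBI was compared with control, by 6 when HSC + TBI was compared with control and by 10 when the irradiated groups were compared, beside 25.4%, 19.6% and 16.3% of all probes tested. Of the other lists, endothelial markers (7) had 0 calls by limma, with 2, 3 and 0 at an unadjusted p under 0.05 in the same order, near those shares in TBI, stellate cell and bile duct markers (9) had 1, Lrat, lower in TBI, erythroid markers (5) had 1, Epb42, higher in TBI and past the filter through the irradiated rats alone, and hepatocyte markers (12) had 1, Tat, higher in TBI. In control, TBI and HSC + TBI, the summed signal was 16292 to 20678, 23189 to 26386 and 21045 to 23021 for endothelial markers. For stellate cell and bile duct markers it was 11871 to 13918, 8349 to 16635 and 9844 to 10126, and for erythroid markers 2046 to 5021, 1388 to 2787 and 1095 to 1907. What part these cells had in the members' and the cell cycle genes' differences was not tested.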

How the data were processed

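Liver RNA of 9 rats was hybridised to 9 Agilent 4 x 44 K Whole Rat Genome arrays, 1 per rat, and groups were taken from the sample labels. Per the file headers, Agilent Feature Extraction 10.7.3.1 gave background-subtracted processed intensities, and these deposited intensities were the starting values. The authors' own log2 values, quantile normalized in GeneSpring, served as an alternative. Signals below 1 were set to 1, log2 transformed and quantile normalized over the 9 arrays. Of 43379 spots on an array, 84 to 115 carried outlier flags and were left out, and none was saturated. Spots of a probe were then averaged. Group means were fitted with limma 3.58.1 in R 4.3.3 over 25369 probes, with Benjamini-Hochberg adjustment. Probes were named by transcript accession through the RefSeq gene table. A gene is represented by its brightest probe, and a probe dim in a whole group gives only a bound, computed from the lowest signals above background. Genes named outside the 9 are the up to 4 called genes of each list with the largest change, the 5 most like the members, and those said to be named later. The members and lists were chosen with earlier results of these data known. The sequence windows are RefSeq's and are not in the build of the array design. Alternatives covered scaling, background correction, filters, test, blocks and leaving out each rat. Nothing says more of the 3 rats of a group than their replicate numbers. The limma p-values rest on the spread between rats within groups, pooled over the 3 groups and moderated over all probes tested. Differences between the slides of different groups are not part of that spread. With 3 rats against 3 an exact two-sided permutation test cannot give a p below 0.1, so none is reported. The fit was tested on simulated data.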

Additional observations from a re-analysis of the deposited data

How the results depend on the processing

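Under 12 alternatives of processing besides leaving out rats, Cdkn1a, Mdm2, Ccng1, Btg2 and Phlda3 kept their calls in TBI and in HSC + TBI against control under all but the methods' t-test with adjusted p-values. That test called 0 of the 8 genes in TBI and 0 in HSC + TBI, and over all probes it called 7 and 1. Without adjustment it called 7 and 6 of the 8. Sesn2 and Plk3 depended on the processing: normexp background correction, with its offset of 50, left 5 genes called in each comparison, and no filter on dim probes left 6 and 5. The size of the changes depended on it too. With normexp the log2 fold changes in TBI were 4.76 for Cdkn1a, 2.82 for Btg2, 2.04 for Ccng1, 1.60 for Phlda3 and 0.70 for Mdm2. The main fit gave 5.37, 3.12, 2.48, 2.55 and 0.96. The slide as a random block gave 7 and 7, as did the mean over a gene's probes, which for Plk3 includes a probe that passed the filter through the irradiated rats alone. Each slide held rats of 1 group only, so the slide block cannot adjust a group difference for slide. It lowered the standard error of Cdkn1a in TBI from 0.25 to 0.13, and its counts are no check on the calls. No alternative called a member between HSC + TBI and TBI. Leaving out 1 rat gave 5 to 7 genes called in TBI, 4 to 6 in HSC + TBI and 0 between them. Same-numbered rats' deviations correlated between -0.14 and 0.19. Between control and TBI they gave 0.19, 0.12 and 0.10, beside -0.12 to 0.02 for differently numbered rats. In pairs with an HSC + TBI rat they gave -0.14 to 0.01, beside -0.09 to 0.14. Whether same-numbered rats shared a step of handling was not tested. The fit with the replicate block called 6, 5 and 0 genes, losing Plk3 in TBI and Sesn2 in HSC + TBI. Over all probes, calls in the 3 comparisons were 1841, 823 and 202, and 665, 490 and 6 with normexp, 1174, 1072 and 54 with only the 2 compared groups in the fit, and 4526, 2583 and 2250 with the slide block, the highest of all alternatives. With 3 arrays a group, changes near 2-fold, such as those of Sesn2, Plk3 and Mdm2, sit closest to the limit of what could be called.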

Other observations

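Within groups, the order of the rats was counted over the 8 genes. Control 1 had the lowest signal of its group in 7 of the 8 genes and control 2 the highest in 5. TBI 1 was the lowest of its group in 6 genes and TBI 2 the highest in 5. In HSC + TBI the lowest place fell to rat 1 in 2 genes, to rat 2 in 2 and to rat 3 in 4. The genes share a rat, an array and a liver, and these counts are descriptions.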
